A study of Oryza sativa Japonica Group with 6 samples.

Results

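The 6 genes described here encode the rice chromatin remodeller OsINO80 (LOC_Os03g22900), the SWR1-complex components PIE1 (LOC_Os02g46450) and ARP6 (LOC_Os01g16414), and the histone variant H2A.Z, which has 3 genes, HTA705 (LOC_Os10g28230), HTA712 (LOC_Os03g53190) and HTA713 (LOC_Os03g06670). They were chosen by locus number and are 6 of the 55801 loci in the count and TPM tables. All 6 had enough counts to be tested. RNA-seq was made from 14-day-old rice seedlings (Oryza sativa Japonica, cultivar Nipponbare) grown untreated in chambers under a short-day photoperiod. The mutant group, osino80, had 3 libraries of genotype osino80-2, and the control group, WT, had 3 libraries of the wild type in the same cultivar. The labels do not describe the lesion of the osino80-2 allele, give 1 allele and no second line, and do not tie the libraries to separate plants. The p-values therefore reflect library-to-library spread, which the fit estimates in part across loci and which may be technical alone.

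INO80 and SWR1 are large remodelling complexes, each built around an ATPase of the Snf2 family that uses ATP to move or rebuild nucleosomes. SWR1 exchanges histone H2A for the variant H2A.Z in nucleosomes near gene starts. INO80 slides nucleosomes and, in yeast, has been reported to act on nucleosomes that carry H2A.Z. In Arabidopsis, loss of the SWR1 components PIE1 or ARP6 lowers H2A.Z in chromatin and brings flowering forward.

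Total counts were 61881971 to 66097710 in the osino80 libraries and 61426662 to 73293481 in the WT libraries. The leaf genes RBCS2, RBCS3, CAB1R and CAB2R each averaged 8271 to 11218 CPM (counts per 1000000, scaled between libraries) in either group, and RBCS4 averaged 2180 and 2260 CPM in osino80 and WT. Of the leaf list 1 of 5 genes was higher in osino80 (CAB2R, by 0.17 on the log2 scale; CAB1R, at 0.05, passed as well under 10 of 17 alternatives) and 3 were lower (RBCS2, RBCS3 and RBCS4, by at most 0.09). Over all tested loci 18.4% were higher and 19.1% lower. The root silicon transporter gene Lsi1 was higher, at 19.7 ± 0.511 CPM in osino80 and 15.4 ± 0.633 CPM in WT (SD, n = 3 each). The root gene RCc3 was near 0, with 30 counts over the osino80 libraries and 32 over the WT libraries, and PIP2;5 had 189 and 208 counts. In these bulk samples fewer cells of a type and less RNA per cell cannot be told apart, and the part of these marker differences in the results that follow was not tested.

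The transcript of the mutated gene is the check of the labels. OsINO80 was lower in every mutant library. It had 18.4, 18.8 and 18.4 TPM in osino80 replicates 1 to 3, against 36.6, 35.7 and 37.3 TPM in WT replicates 1 to 3 (TPM, transcripts per 1000000, is scaled for gene length). The groups lay far apart, and within each the libraries differed little. The coefficient of variation of the CPM values was at most 2.05% in either genotype. In the fit across all tested loci the mutant level was 0.511 of the WT level, with a 95% interval of 0.491 to 0.532. The ratio of the mean deposited TPM, 0.507, lay within that interval.

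Set against all 24914 tested loci, 49 had a smaller p than OsINO80 and 4.86% had a fold change at least as large in either direction. The median size of the log2 fold change over all tested loci was 0.16, and that of OsINO80 was -0.97 ± 0.03 (SE). A count sums reads over the whole locus. Which parts of the gene the remaining transcript covers, and whether it can be translated, was therefore not tested.

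**Figure D1:**
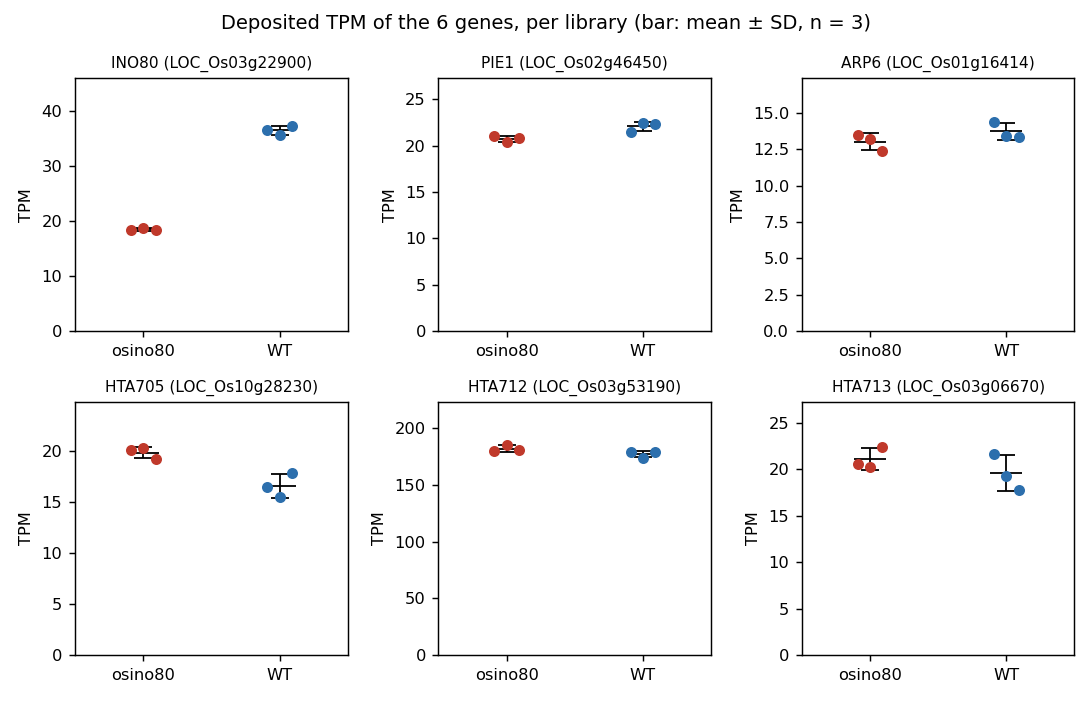
Deposited TPM of OsINO80, PIE1, ARP6, HTA705, HTA712 and HTA713 in each library (points), with the mean and SD of 3 libraries per genotype (bars), on axes that start at 0. OsINO80 lies at 18.4 to 18.8 TPM in osino80 and 35.7 to 37.3 TPM in WT, while the mean TPM ratio of osino80 to WT of the other 5 genes is between 0.940 and 1.196.

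The loci around OsINO80 did not share its drop. Of the 10 nearest tested loci by locus number, 5 on each side, 3 passed the test and all 3 were higher in osino80. Over all tested loci 37.6% passed, 18.4% as higher. The log2 fold changes of the 10 ran from -0.28 to 0.60. The adjacent locus on one side, LOC_Os03g22890, had 111 ± 3.24 CPM in osino80 and 112 ± 0.419 CPM in WT (SD, n = 3 each). On the other side, LOC_Os03g22950 had 35.5 ± 1.35 CPM in osino80 and 33.0 ± 1.28 CPM in WT. Neither passed the test, with edgeR adjusted p values of 0.584 and 0.0714. The kit was strand-specific, but the strand setting of the counting is not given in the sources used here, so reads of overlapping or antisense loci cannot be told apart.

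**Figure D2:**
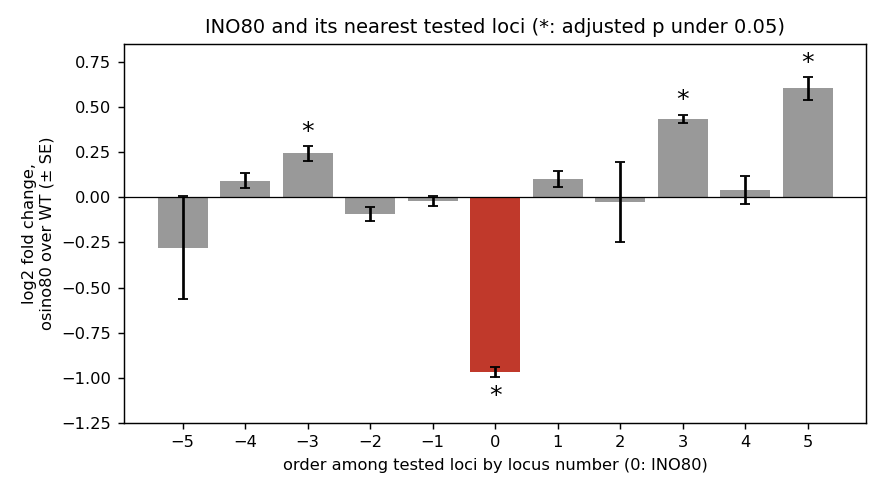
Log2 fold change, osino80 over WT, with its SE, for OsINO80 (0 on the x axis) and the 5 nearest tested loci on each side in order of locus number. OsINO80 reaches -0.97, the lowest neighbour is at -0.28 and did not pass, and the 3 neighbours marked as passing are all higher in osino80. Over all tested loci 37.6% passed, 18.4% as higher.

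The loci whose values across the 6 libraries were most like those of OsINO80 are known here by identifier only. Likeness was the root mean square distance between log2 CPM values centred on each locus's mean, over 16513 candidate loci whose log2 CPM averaged 2 or more. LOC_Os01g11054 came nearest, at a distance of 0.014. It had 101, 101 and 103 CPM in osino80 and 202, 196 and 202 CPM in WT. LOC_Os01g65230 followed at 0.025, with 37.6, 37.5 and 37.6 CPM in osino80 and 71.4, 73.1 and 73.2 CPM in WT. Both distances mostly reflect the step between the genotypes, which these loci share in size.

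Of the 6 genes 1 passed the test as higher in osino80 (HTA705) and 2 as lower (OsINO80 and PIE1). Of all tested loci, 37.6% passed, 18.4% higher and 19.1% lower, so a call by itself sets these genes apart little. The CPM values of the genotypes did not overlap in 4 of the 6 genes, OsINO80, PIE1, ARP6 and HTA705, where 45.7% of all tested loci showed no overlap. The 5 genes other than OsINO80 had log2 fold changes between -0.11 and 0.21. In size these stood between the 9.40 and 59.8 percentiles of all tested loci, and that of OsINO80 at the 95.1 percentile.

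**Figure D3:**
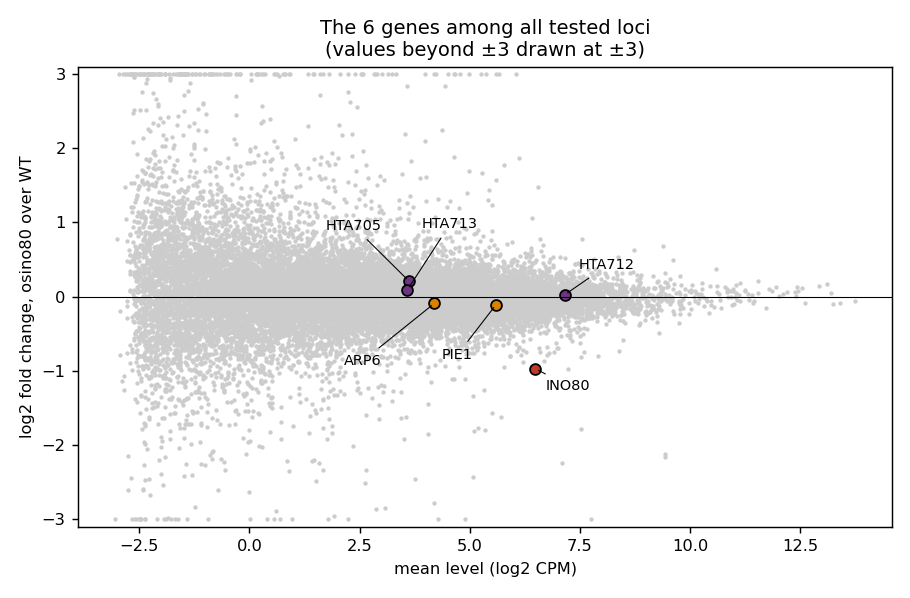
Log2 fold change, osino80 over WT, against mean level in log2 CPM for all tested loci (grey), with the 6 genes marked. OsINO80 lies low in the plot, at -0.97, and 344 loci, OsINO80 included, passed at that value or lower. The other 5 genes lie within the grey cloud, between -0.11 and 0.21.

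PIE1 encodes the Snf2-family ATPase at the core of SWR1. It was slightly lower in the mutant. There were 21.0, 20.4 and 20.8 TPM in the osino80 libraries and 21.5, 22.4 and 22.4 TPM in the WT libraries. Every mutant library was below every WT library, by a margin that was small beside the level. PIE1 changed by -0.11 ± 0.04 on the log2 scale (SE; edgeR adjusted p = 0.0175), to a mutant level of 0.928 of WT with a 95% interval of 0.880 to 0.978. It no longer passed when osino80 replicate 2 (edgeR adjusted p = 0.0750), WT replicate 2 (0.0658) or WT replicate 3 (0.0672) was left out, nor on the deposited TPM (limma adjusted p = 0.167 with a pseudocount of 1). Over all alternatives its adjusted p, from edgeR, DESeq2 or limma, lay between 0.0110 and 0.167.

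ARP6, an actin-related protein, is the SWR1 subunit whose loss in Arabidopsis depletes H2A.Z from chromatin. It had 13.5, 13.2 and 12.4 TPM in osino80 and 14.4, 13.5 and 13.4 TPM in WT. The genotypes overlapped in TPM and did not overlap in CPM, at 17.7 ± 0.451 and 18.9 ± 0.499 CPM in osino80 and WT (SD, n = 3 each). At -0.09 ± 0.06 on the log2 scale (SE) it did not pass the test (edgeR adjusted p = 0.281). Its 95% interval ran from 0.8605 to 1.025 of the WT level, so a drop to below that lower bound lies outside it.

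Relative to each other the SWR1 genes kept similar levels. The ratio of ARP6 to PIE1 in TPM was 0.627 ± 0.0286 in osino80 and 0.623 ± 0.0410 in WT (SD, n = 3 each). Relative to OsINO80 both stood higher in the mutant. The ratio of PIE1 to OsINO80 in TPM was 1.12 ± 0.0306 in osino80 and 0.605 ± 0.0213 in WT, and that of ARP6 to OsINO80 was 0.703 ± 0.0317 and 0.376 ± 0.0176. These shifts come with the lower OsINO80 in the denominator, as PIE1 and ARP6 themselves had mutant to WT ratios of mean TPM of 0.940 and 0.948.

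The H2A.Z genes encode the variant that SWR1 places in nucleosomes. HTA712 gave most of their transcript in either genotype. It had 180, 185 and 181 TPM in osino80 and 179, 174 and 179 TPM in WT. The TPM values did not overlap, by less than 1 TPM between the lowest mutant and the highest WT library, and the CPM values overlapped. The log2 fold change of 0.03 ± 0.02 (SE) did not pass the test (edgeR adjusted p = 0.439). HTA712 had the smallest SE of the 6 genes, and its 95% interval of 0.985 to 1.053 of the WT level bounds a difference to a few percent.

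HTA705 was higher in the mutant. There were 20.1, 20.3 and 19.2 TPM in the osino80 libraries and 16.5, 15.5 and 17.9 TPM in the WT libraries. Every mutant library was above every WT library, and the WT libraries spread more widely, with a coefficient of variation in CPM of 1.90% in osino80 and 6.21% in WT. HTA705 changed by 0.21 ± 0.08 on the log2 scale (SE; edgeR adjusted p = 0.0218), to a mutant level of 1.158 of WT with a 95% interval of 1.041 to 1.287. It no longer passed when osino80 replicate 1 (edgeR adjusted p = 0.0581), osino80 replicate 2 (0.0745), WT replicate 1 (0.0692) or WT replicate 2 (0.124) was left out. Across the alternatives the adjusted p, from edgeR, DESeq2 or limma, lay between 0.00690 and 0.124.

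HTA713 had 20.6, 20.3 and 22.5 TPM in osino80 and 21.7, 19.3 and 17.8 TPM in WT. The genotypes overlapped, and this gene varied most between libraries of a genotype, with coefficients of variation in CPM of 7.78% in osino80 and 8.65% in WT. The log2 fold change of 0.09 ± 0.08 (SE) did not pass the test (edgeR adjusted p = 0.381), and the 95% interval ran from 0.958 to 1.188 of the WT level. The H2A.Z genes encode closely related proteins. How reads that match several of them were counted is not given in the sources used here, so how reads divide between HTA705, HTA712 and HTA713 is uncertain, and so are their separate values. A read assigned to another of the 3 genes would not change their summed count, but would change their summed TPM, as TPM depends on gene length.

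Summed over the 3 genes, H2A.Z transcript was 221, 226 and 223 TPM in osino80 replicates 1 to 3 and 218, 209 and 215 TPM in WT replicates 1 to 3. The mutant libraries were all above the WT libraries, with means of 223 ± 2.63 and 214 ± 4.29 TPM in osino80 and WT (SD, n = 3 each) and a ratio of 1.04. In CPM the sums were 169 ± 0.667 in osino80 and 164 ± 4.14 in WT, a ratio of 1.03, also without overlap. HTA712 made up 81.6% ± 0.384 of the sum in osino80 and 83.1% ± 0.520 in WT. HTA705 made up 8.90% ± 0.249 in osino80 and 7.77% ± 0.483 in WT, without overlap between the genotypes. HTA713 made up 9.47% ± 0.561 in osino80 and 9.17% ± 0.837 in WT, with overlap. For each TPM of OsINO80 there were 12.0 ± 0.0360 TPM of H2A.Z in osino80 and 5.86 ± 0.0978 TPM in WT. That shift comes with the lower OsINO80 in the denominator, as the H2A.Z sum itself had a mutant to WT ratio of 1.04.

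**Figure D4:**
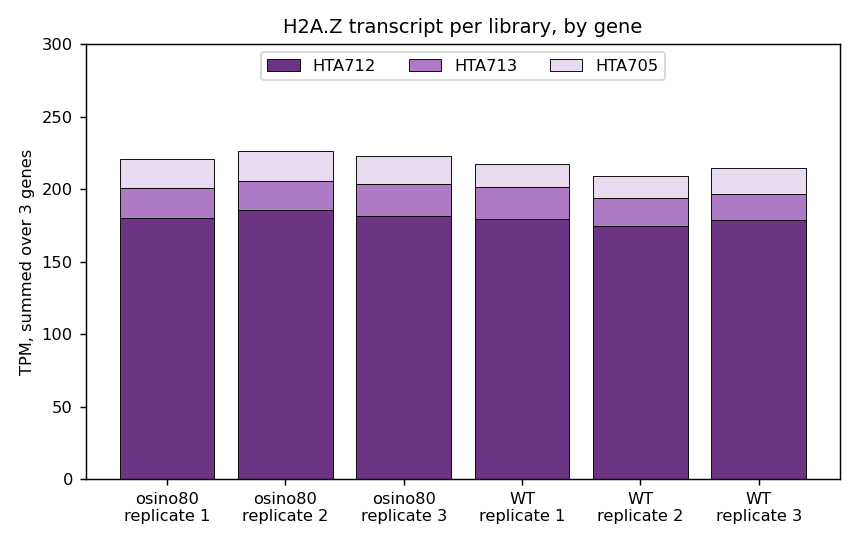
Deposited TPM of HTA712, HTA713 and HTA705 stacked for each library, with osino80 on the left. The sums lie between 221 and 226 TPM in osino80 and between 209 and 218 TPM in WT, and HTA712 fills most of every bar.

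Ordered by mean TPM, OsINO80 held a different place in the ranking of the 6 genes in each genotype, and PIE1 and HTA713, whose values overlapped in both, changed places. In osino80 HTA712 was followed by HTA713 at 21.1 ± 1.17 TPM, PIE1 at 20.8 ± 0.309, HTA705 at 19.9 ± 0.563, OsINO80 at 18.5 ± 0.236 and ARP6 at 13.0 ± 0.580 TPM (SD, n = 3). HTA713 and PIE1 overlapped there, and the other neighbours did not. In WT HTA712 was followed by OsINO80 at 36.5 ± 0.820 TPM, PIE1 at 22.1 ± 0.531, HTA713 at 19.6 ± 1.95, HTA705 at 16.6 ± 1.18 and ARP6 at 13.7 ± 0.565 TPM. There PIE1 overlapped HTA713 and HTA713 overlapped HTA705. OsINO80 thus stood just below HTA712 in WT and just above ARP6 in the mutant. Against all tested loci the WT levels ran from the 57.6 percentile for ARP6 to the 97.0 percentile for HTA712, with OsINO80 at 80.9.

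The H2A.Z sum can be set beside loci of other H2A histones, a list that is not known to be complete. Of 10 such loci, listed from general knowledge with no annotation to check them, 2 were higher in osino80, 1 was lower and 7 did not pass. Over all tested loci 18.4% were higher and 19.1% lower, so these counts set the list apart little. The median log2 fold change of the 10 was 0.03, beside 0.00 over all tested loci. LOC_Os03g17100 was higher, at 81.2 ± 1.12 CPM in osino80 and 72.5 ± 1.15 CPM in WT, 0.16 ± 0.03 higher on the log2 scale (SE; edgeR adjusted p = 1.86e-06). LOC_Os05g02300 was higher as well, by 0.20 ± 0.06 on the log2 scale. LOC_Os07g36130 was lower, at 11.8 ± 0.259 CPM in osino80 and 14.2 ± 0.829 CPM in WT, a log2 fold change of -0.27 ± 0.08. LOC_Os05g38640, at 0.05 ± 0.02, did not pass (edgeR adjusted p = 0.0565) but passed under 7 of 17 alternatives, 2 other scalings among them. Across the alternatives its adjusted p, from edgeR, DESeq2 or limma, lay between 0.0312 and 0.311. Copies of H2A genes are alike in sequence, so here too the division of reads is uncertain.

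The 10 loci together had 1157 ± 2.95 TPM in osino80 and 1108 ± 23.0 TPM in WT (SD, n = 3 each), a ratio of 1.04, as for the H2A.Z sum. In CPM the ratio of the 10 was 1.04 as well. The largest part of the TPM sum came from LOC_Os07g36140, with 562 ± 11.4 TPM in osino80 and 537 ± 18.6 TPM in WT. Its genotypes overlapped and it did not pass (edgeR adjusted p = 0.727), so the sum and the share below rest largely on 1 unchecked locus. H2A.Z was 16.2% ± 0.131 of the TPM of the 13 listed H2A and H2A.Z loci in osino80 and 16.2% ± 0.166 in WT, and the genotypes overlapped. Many H2A genes outside the H2A.Z group are transcribed mainly in dividing cells, but the 10 loci were not sorted by type. Among 5 genes of dividing cells 1 was lower in osino80 and 4 did not pass, where 19.1% of all tested loci were lower. CDKB1;1, a mitotic cyclin-dependent kinase gene, was the lower one, at 4.47 ± 0.665 CPM in osino80 and 7.91 ± 0.843 CPM in WT (log2 fold change -0.82 ± 0.11, SE; edgeR adjusted p = 2.51e-11). The replication clamp gene PCNA had a log2 fold change of 0.01 ± 0.07, the cyclin genes CYCB1;1 and CYCB2;2 of 0.09 ± 0.10 and -0.01 ± 0.13, and CDKB2;1 of -0.06 ± 0.10. The signs of PCNA, CYCB2;2 and CDKB2;1 flipped when single libraries were left out, and the part of these genes in the H2A values was not tested.

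ATPase genes of the other Snf2-family remodellers, which include the SWI/SNF, ISWI and CHD types, mostly had small fold changes. Of 11 loci, listed from general knowledge, 2 were higher in osino80, 5 were lower and 4 did not pass, with a median log2 fold change of -0.08, where 18.4% of all tested loci were higher and 19.1% lower. The exception in size was the CHD-type locus LOC_Os01g65850, singled out after its values were seen. It had 0.419 ± 0.0558 CPM in osino80 and 0.249 ± 0.0721 CPM in WT (SD, n = 3 each), and at 0.74 ± 0.48 on the log2 scale (SE) it did not pass. The locus listed as CHD1-type, LOC_Os07g46590, was lower at 114 ± 1.47 CPM in osino80 and 128 ± 2.40 CPM in WT, -0.17 ± 0.03 as a log2 fold change (SE; edgeR adjusted p = 8.09e-10). The SWI/SNF ATPase locus listed as BRM-type, LOC_Os02g02290, had 199 ± 0.814 CPM in osino80 and 219 ± 3.60 CPM in WT, a log2 fold change of -0.14 ± 0.02. A further SWI/SNF-type locus, LOC_Os05g05230, was lower by a log2 fold change of -0.18 ± 0.04. The ISWI-type locus LOC_Os01g27040 was higher in counts, by 0.18 ± 0.05 on the log2 scale. It did not pass once WT replicate 2 was left out (edgeR adjusted p = 0.223) or with DESeq2 (adjusted p = 0.149), and the sign turned on the deposited TPM, where the locus had 13.7 ± 1.59 TPM in osino80 and 14.3 ± 0.705 TPM in WT.

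Among 3 loci of other actin-related proteins, also listed from general knowledge, 1 was lower and 2 did not pass, where 19.1% of all tested loci were lower. ARP4, known as a subunit common to INO80 and SWR1 complexes, had 56.1, 56.1 and 52.9 CPM in osino80 and 51.3, 50.4 and 54.0 CPM in WT. The genotypes overlapped, and the log2 fold change of 0.08 ± 0.04 (SE) did not pass the test (edgeR adjusted p = 0.0594). It passed without osino80 replicate 3 (edgeR adjusted p = 0.0237) or WT replicate 3 (0.0246), and its adjusted p from edgeR, DESeq2 or limma lay between 0.0237 and 0.249 across the alternatives. ARP7, whose Arabidopsis counterpart belongs to SWI/SNF complexes, did not pass at -0.11 ± 0.06 on the log2 scale. ARP8, which in Arabidopsis is an F-box protein and differs from the yeast INO80 subunit of that name, changed by -0.09 ± 0.04 on the log2 scale (edgeR adjusted p = 0.0365). It no longer passed when osino80 replicate 1 (edgeR adjusted p = 0.0812), osino80 replicate 2 (0.184), WT replicate 2 (0.0996) or WT replicate 3 (0.235) was left out, nor with limma voom or on TPM.

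**Figure D5:**
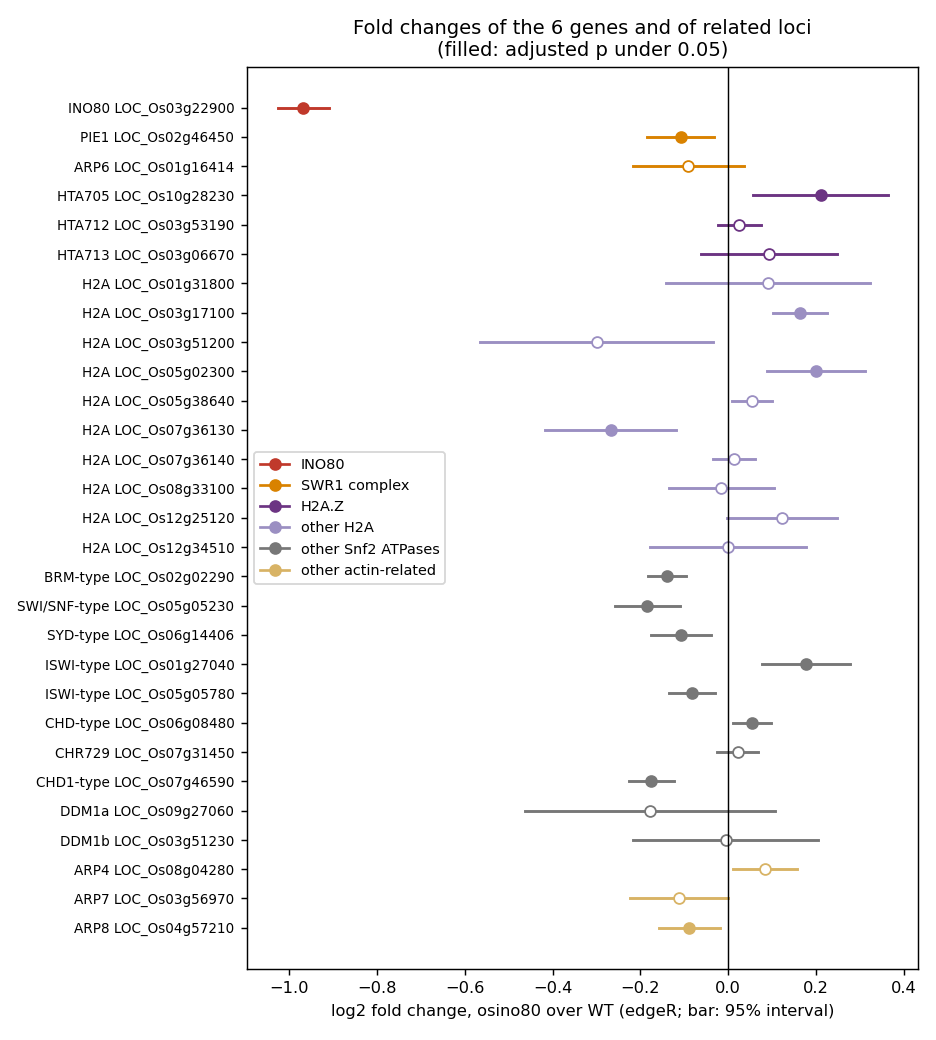
Log2 fold change, osino80 over WT, with its 95% interval, for the 6 genes and 23 of the 24 related loci (a CHD-type locus with 80 counts over osino80 and 51 over WT is left out for its wide interval); filled points passed the test. OsINO80 stands alone near -0.97, and all other points lie between -0.30 and 0.21.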

How the data were processed

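The authors deposited whole-number counts per locus and TPM per locus; the submitters' processing notes name featureCounts, HISAT2, cutadapt and SAMtools. Versions, genome build, annotation, strand setting, treatment of multi-mapping reads and the computation of TPM are not given in any source used here. In each library 82.4% to 83.65% of counts between 1 and 20 were even, the pattern left by counting each read of a pair, so fewer fragments than counts lie behind a value. The TPM table's 2 columns of group means were not used.

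The test was edgeR's quasi-likelihood test (edgeR 4.0.16, R 4.3.3) on loci kept by filterByExpr, after TMM scaling, with dispersions from estimateDisp and a robust glmQLFit, two-sided, with Benjamini-Hochberg adjustment over 24914 loci and a threshold of 0.05. "Passed", "higher" and "lower" refer to this test. The SE is the log2 fold change divided by the square root of F, and 95% intervals use its t quantile. The fit was also run on simulated data with 200 changed loci. Far more loci passed here, so that run cannot show how the fit behaves with changes this widespread. Alternatives were the replicate number as a block, 2 scalings, 2 filters, DESeq2 1.42.0, limma 3.58.1 (voom, and trend on log2(TPM + 1) and log2(TPM + 0.1) for loci with a mean of at least 1 TPM), robust=FALSE, halved counts, and each library left out in turn.

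Members and lists were chosen with earlier results of these data known. The locus numbers of the 6 genes are those given for this comparison, and those of the related and marker loci come from general knowledge. The RefSeq table (ASM3414082v1) holds none of these identifiers, but placed 13 of 25 names looked up, ARP6 among them, on the chromosome in the locus number, and did not hold the other 12. The 10 H2A loci and 8 of the 11 Snf2 loci have no individual name here, so they were not looked up. The remaining Snf2 names, CHR729, DDM1a and DDM1b, were looked up and not found. The identity of all these loci is unchecked. Of the names of the 6 genes only ARP6 was found, and INO80, PIE1, HTA705, HTA712 and HTA713 were not. Named loci are the 6 genes, up to 4 loci of smallest p per longer list and all of shorter lists, and the 2 loci most like OsINO80. The adjacent loci of OsINO80 were named by position after their values were seen, and LOC_Os07g36140 for its level, also after its values were seen. Deviations from the group means correlated by 0.0117, -0.0173 and 0.00981 between libraries of the same number, so numbers were not used as pairs. No 2 libraries of a genotype matched within the sampling noise of independent counts. Their chi-square per degree of freedom was 3.59 to 4.03. Counting each read of a pair also raises this value, and its part was not tested.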

Additional observations from a re-analysis of the deposited data

How the results depend on the processing

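OsINO80 stayed lower and past the threshold under all 17 alternatives, with log2 fold changes between -0.98 and -0.94; with the replicate block it was -0.97. The block changed none of the calls among the 6 genes and their related loci that are named. Of the 6 genes, 1 higher and 2 lower, the number higher was 0 to 1 and the number lower 1 to 2 when single libraries were left out, and the number lower was 1 on the deposited TPM with either pseudocount, where PIE1 lost its call. Leaving out single libraries gave 3 to 5 higher and 5 to 7 lower among the 24 related loci. Over all loci 4556 were higher and 4773 lower with the block, against 4596 and 4767 without it. The ISWI-type locus LOC_Os01g27040 turned to -0.057 on log2(TPM + 1) and -0.061 on log2(TPM + 0.1), and the cause was not tested. Signs of values that did not pass also turned: PIP2;5 to 0.0067 and 0.0018 on TPM, and RCc3 to 0.15 with the replicate block and 0.50 with limma voom. With single libraries left out the ranges were -0.22 to 0.15 for PIP2;5, -0.56 to 0.88 for RCc3, -0.17 to 0.020 for CDKB2;1, -0.10 to 0.088 for CYCB2;2 and -0.031 to 0.044 for PCNA. CAB1R, which did not pass (edgeR adjusted p = 0.203), passed under 10 of 17 alternatives, among them the replicate block (edgeR adjusted p = 1.84e-07), with which 2 of 5 leaf genes were higher. The ratio of summed H2A.Z, 1.04 in TPM, was 1.03 in CPM and 1.03 to 1.05 without single libraries. With 3 libraries a genotype, the calls of PIE1, HTA705 and ARP8 depended on which libraries entered the fit, and HTA705 and HTA713 rest on 2313 to 2510 counts per genotype.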
